A study of Mus musculus with 96 samples.

Results

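The cytosolic ribosomal protein genes of mouse were described across intestinal organoids of 4 genotypes. Members were the genes whose symbol names a protein of the large (Rpl, and Rplp0 to Rplp2) or small (Rps, and Rpsa) subunit, with annotated -ps pseudogenes left out. The rule used symbols and no measured value, and it took 83 of the 55536 genes in the deposited tables, 51 of the 60S and 32 of the 40S subunit. Of the 83, 80 are annotated as protein coding, 2 as processed pseudogenes (Rpl32l and Rpl6l) and 1 as a transcribed processed pseudogene (Rps4l).

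A ribosome carries a single copy of nearly every one of these proteins, and their genes are known to be expressed together and at high levels. Growth signals act on their mRNAs mainly at translation, through a 5' terminal oligopyrimidine tract that starts with C at the cap and is read by LARP1 downstream of mTORC1. In the intestinal epithelium, Wnt signalling through MYC raises ribosome production, and loss of Apc, a brake on Wnt signalling, is a classical trigger of that programme.

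Organoids are epithelial cultures that grow from intestinal crypts in a gel, here from C57BL/6 mice. The APCmin/-;BMAL1-/- organoids (called double-mutant) and the APCmin/-;BMAL1+/+ organoids (APC-mutant) are labelled as adenoma organoids and were grown in EN medium. The APC+/+;BMAL1-/- organoids (BMAL1-null) and the APC+/+;BMAL1+/+ organoids (wild-type) were grown in ENR medium. BMAL1, encoded by Arntl, is an activator at the core of the circadian clock. All 4 genotypes had 1 h of 0.1 µM dexamethasone, a glucocorticoid that aligns cellular clocks, and were sampled every 2 h from 24 to 46 h. Each genotype was represented by 2 organoid lines, and which line gave which library is not labelled, so p-values describe the scatter of libraries rather than of lines. TPM tables held 22 libraries per genotype, 88 in all, with 1 or 2 at each of 12 time points. The comparisons ask what the Apc and Bmal1 alleles and the time after synchronization do to expression.

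Uniquely mapped reads numbered 28.8 to 48.1 M per library. Reads left unmapped as too short averaged 1.31% in double-mutant, 1.3% in APC-mutant, 6.00% in BMAL1-null and 6.73% in wild-type libraries. Library numbers also split by Apc genotype, so genotype, medium and library series cannot be told apart in the Apc comparisons. Both sets of libraries within a genotype, lower-numbered and higher-numbered, were compared separately where a result depends on them. The 9 epithelial markers summed to medians of 12941, 11284, 13794 and 13836 TPM in double-mutant, APC-mutant, BMAL1-null and wild-type libraries. Single markers differed in direction. In the same order, Epcam had medians of 614, 644, 1621 and 1697 TPM, and Krt18 of 2584, 2364, 1046 and 1059 TPM. The 6 fibroblast markers summed to at most 1.04 TPM in any library. The 5 immune markers summed to medians of 7.48 and 24.6 TPM in double-mutant and APC-mutant libraries, against 3.28 and 3.3 TPM in BMAL1-null and wild-type libraries. The 4 endothelial markers summed to medians of 4.48 and 5.22 against 1.18 and 1.02 TPM. The 2 immune and 2 endothelial markers that could be tested were all higher in APC-mutant against wild-type organoids, with 2.19 ± 0.12 for Cd68 and 2.61 ± 0.26 for Cdh5, and the part of such cells in the results was not tested. The libraries labelled double-mutant 28 h replicate 1 and APC-mutant 28 h replicate 1 went against their BMAL1 labels. Arntl was at 14.7 TPM in that double-mutant library, where the other 21 ran from 2.00 to 6.22 TPM, and at 4.09 TPM in that APC-mutant library, where the other 21 ran from 7.20 to 17.3 TPM. Arntl ran from 6.31 to 10.9 TPM in BMAL1-null and from 11.3 to 20.7 TPM in wild-type libraries, and the labels do not say which part of the gene is deleted. Both doubted libraries were kept under their labels, and results that move without them are given both ways.

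Ribosomal protein mRNA made up 18% ± 2.51 of all TPM in double-mutant, 16.8% ± 1.42 in APC-mutant, 15.1% ± 1.65 in BMAL1-null and 15.1% ± 1.99 in wild-type organoids (SD, n = 22 each). In TPM, a length-corrected share of all transcripts, the lowest, median and highest sums were 147000, 173604 and 267228 in double-mutant libraries. They were 139665, 165157 and 195121 in APC-mutant, 131689, 141288 and 183499 in BMAL1-null, and 119071, 146015 and 197976 in wild-type libraries. All 4 ranges overlapped. The mean sum was 1.19 times as high in double-mutant as in BMAL1-null organoids, and 1.11 times as high in APC-mutant as in wild-type organoids. It was 1.07 times as high in double-mutant as in APC-mutant organoids (1.09 without both doubted libraries), and the ratio of BMAL1-null to wild-type was 0.999. Within the lower-numbered libraries the BMAL1-null to wild-type ratio was 1.06, and within the higher-numbered ones it was 0.945. The 40S members summed to 0.731, 0.734, 0.737 and 0.740 of the 60S members in double-mutant, APC-mutant, BMAL1-null and wild-type organoids, with a range over all libraries of 0.713 to 0.777. In bulk RNA, a change in the share of cells of a type and a change in RNA per cell cannot be told apart.

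**Figure D1:**
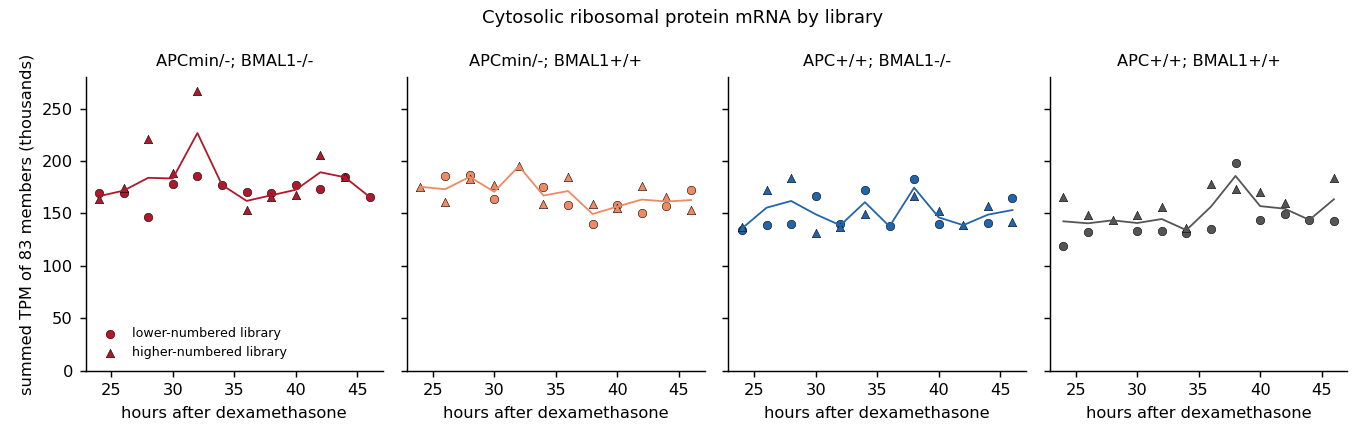
Summed TPM of the 83 genes (vertical axis, in units of 1000 TPM) against hours after dexamethasone, with 1 panel per genotype, circles and triangles for lower-numbered and higher-numbered libraries and a line through the mean at each time. The highest library, double-mutant 32 h replicate 2, lies at 267228 TPM, and wild-type libraries lie between 119071 and 197976.

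Transcript length moved with these sums. The members are short, with a median exonic length of 827 bp against 2667 bp for all genes that averaged at least 1 TPM. A length slope was computed for each library as the change of log2 TPM deviation per log2 exonic length over the other genes that averaged at least 1 TPM. A negative slope marks a library in which short transcripts in general read high. Across the 22 libraries of a genotype, the sum and the length slope had a Pearson r of -0.96 in double-mutant, -0.54 in APC-mutant, -0.97 in BMAL1-null and -0.97 in wild-type organoids. Spearman's rho was -0.90, -0.50, -0.87 and -0.97 in the same order of genotypes, and r without the 2 libraries farthest from the median slope was -0.86, -0.52, -0.96 and -0.95. These are descriptions, since both measures come from the same library. Double-mutant 32 h replicate 2, the library with the highest sum, had a length slope of -0.215 and 3.86% of reads unmapped as too short, the highest share among double-mutant libraries. The mean length slope was 0.037 in double-mutant and 0.038 in APC-mutant libraries, against -0.041 in BMAL1-null and -0.035 in wild-type libraries. Short transcripts in general thus read lower in libraries of the APC-mutant genotypes, and fits with the slope as a covariate are given beside several of the results. The deviations are from the mean over all 4 genotypes, so genes that change with Apc also enter the slope. Since the slope differs with Apc genotype, its fits in the Apc comparisons cannot fully separate a length effect from the genotype difference tested.

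**Figure D2:**
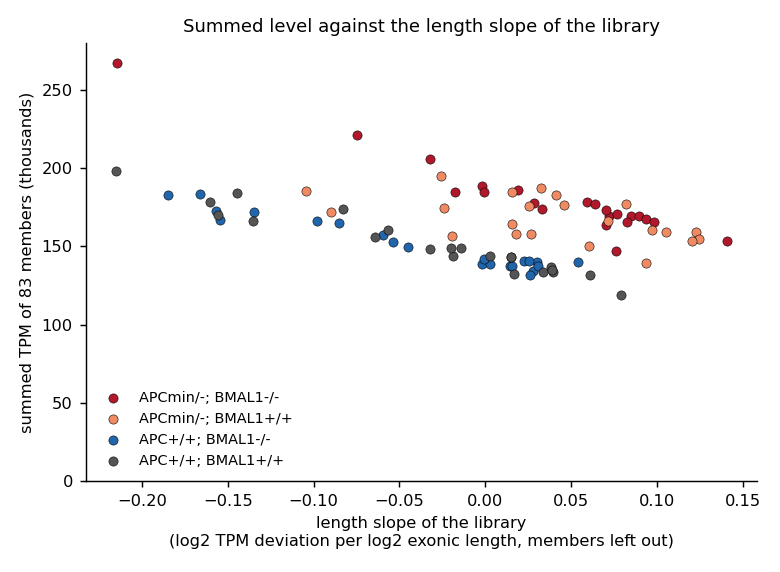
Summed TPM of the 83 genes (vertical axis, in units of 1000 TPM) against the length slope of the library (horizontal axis, log2 TPM deviation per log2 exonic length over other genes), with 1 point per library coloured by genotype. Sums fall as the slope rises, with r between -0.97 and -0.54 within genotypes.

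The members varied together from library to library. The median correlation of a member with the mean of the other members, over the 22 libraries of a genotype, was 0.921 in double-mutant, 0.87 in APC-mutant, 0.898 in BMAL1-null and 0.921 in wild-type organoids. Of the 79 members that could be tested, 59, 57, 63 and 67 had an r of 0.8 or more in these genotypes, and 11, 7, 5 and 5 had an r under 0.5. Rpl10, which joins the 60S subunit late and is needed for subunit joining, and Rpl4, whose extension lines the peptide exit tunnel, were under 0.5 in every genotype. The pseudogene Rps4l was too.

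By level, 77 of the 83 members averaged 100 TPM or more over all libraries and 69 averaged 1000 TPM or more. The highest was Rplp1, an acidic protein of the stalk that recruits the translational GTPases, at 7188 ± 1346 TPM in double-mutant, 6395 ± 756 in APC-mutant, 5586 ± 769 in BMAL1-null and 5523 ± 873 in wild-type organoids (SD, n = 22 each). Its stalk partner Rplp2 averaged 4265, 3896, 3454 and 3474 TPM in the same genotypes. Rps12, of the small subunit, averaged 6245, 5269, 4928 and 4924 TPM. Rpl13a, of the large subunit, averaged 5129, 5007, 4538 and 4590 TPM, and Rps14, which sits near the mRNA on the small subunit platform, averaged 4113, 4013, 3989 and 3931 TPM. Rpl41, a very short peptide at the subunit interface, averaged 4003, 3747, 3519 and 3566 TPM. The ranges of all 6 overlapped between genotypes.

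At the other end, 4 members stayed under 1 TPM on average in every genotype. Rpl10l and Rpl39l, known as testis paralogs, reached at most 0.05 and 0.22 TPM in any library, against means of 1913 to 2100 TPM for Rpl10 and 541 to 624 TPM for Rpl39. Rpl3l, the paralog of striated muscle, reached 0.20 TPM, against means of 1909 to 2557 TPM for Rpl3, which lies at the peptidyl transferase centre. The processed pseudogene Rpl32l reached 1.11 TPM in any library. Rpl6l, also a processed pseudogene, averaged 4.72 to 5.26 TPM over the genotypes and was tested.

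The 5' pyrimidine tract was looked for at the annotated transcript starts. RefSeq promoter windows of GRCm38.p6 were on hand for 61 members, 73 windows in all. A C at the annotated start followed by 4 pyrimidines (C or T) stood on the transcribed strand in 14 of the 73 windows, 19.2%, against 823 of 32851 windows of all genes, 2.51%. Allowing the run to begin from 5 bases before to 10 bases after the annotated start, the shares were 42.5% and 18.3%. The following windows run from 25 bases before the annotated start to 15 bases from it on, and the C with the unbroken pyrimidine run after it is in capitals. They show the shared tract in genes of both subunits, some of which are described in the comparisons.
Rplp2, chr7:141447626-141447665, plus strand: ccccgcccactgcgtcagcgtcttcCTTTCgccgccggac
Rpl14, chr9:120571492-120571531, plus strand: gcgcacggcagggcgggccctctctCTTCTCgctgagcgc
Rps27, chr3:90213634-90213673, minus strand: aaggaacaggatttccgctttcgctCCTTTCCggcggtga
Rps6, chr4:86857353-86857392, minus strand: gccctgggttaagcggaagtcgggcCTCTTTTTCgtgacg
Rps18, chr17:33955651-33955690, minus strand: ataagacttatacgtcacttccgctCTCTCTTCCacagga

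In APC-mutant against wild-type organoids, at a Benjamini-Hochberg adjusted p under 0.05 in limma over all genes, 48 of 79 members were higher and 4 were lower. Over all genes tested, 50.5% were higher and 31.1% lower, against 60.8% and 5.06% of the members. The median member difference was 0.14 in log2(TPM + 1), below the median of 0.17 over all genes, and 70 of the 79 members were above 0. With median-of-ratios scaling, which moved the median of all genes to 0.01, the members' median was -0.03, with 8 higher and 10 lower, so that the direction of the family in this comparison depends on the scaling. With the library length slope, which itself differs with Apc genotype, as a covariate, 69 were higher and 1 lower. Within the lower-numbered libraries 20 were higher and 1 lower, and within the higher-numbered ones 30 and 5. The share of all genes called is not given for these alternative fits, so their counts show only how the members' calls move. By subunit, 18 of 32 members of the 40S and 30 of 47 of the 60S subunit were higher.

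In double-mutant against BMAL1-null organoids, which share no library with the first comparison, 63 of 79 members were higher and 1 lower in the limma fit. Both comparisons carry the same split of medium and library series, so these and Apc cannot be told apart in what they share. The background over all genes was 45.7% higher and 38.8% lower. The median member difference was 0.24, against 0.07 over all genes, and 75 members were above 0. With median-of-ratios scaling the members' median was 0.15, with 30 higher and 1 lower. With the length slope as a covariate 78 were higher and 1 lower. No share over all genes is given for these 2 fits either. By subunit, 26 of 32 members of the 40S and 37 of 47 of the 60S subunit were higher. Among other genes of 1000 bp or less, 653 of 1694 were higher and 718 lower, with a median of -0.05. All 48 members higher in APC-mutant organoids were among the 63 higher in double-mutant organoids, which is 100% of the first list and 76.2% of the second. With 63 of 79 members called in the second comparison, a large overlap follows from that count alone. Across the 79 members, the 2 sets of differences had a Pearson r of 0.78 and a Spearman rho of 0.95. Neither the overlap nor the correlation over all genes is given.

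**Figure D3:**
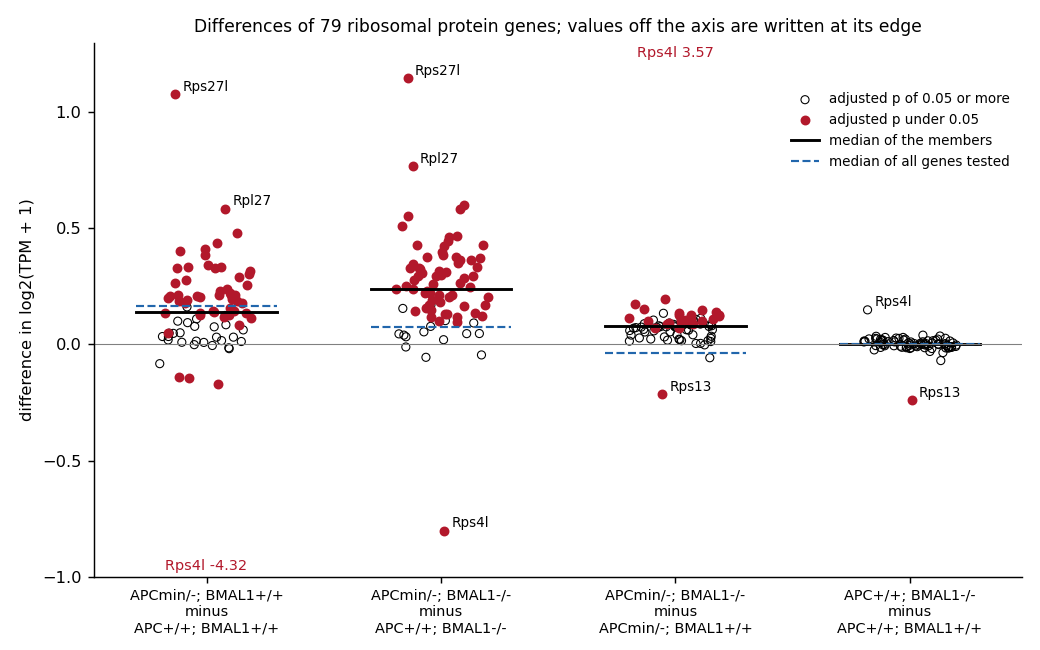
Difference in log2(TPM + 1) for each of 79 ribosomal protein genes (vertical axis) in 4 genotype comparisons, with filled points for an adjusted p under 0.05, a solid line for the median of the members and a dashed line for the median of all genes tested. The medians of the members are 0.14, 0.24, 0.08 and 0.00 from left to right.

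Relative to the members themselves the Apc comparisons were uneven. With each library centred on the mean of the members, 20 were higher and 27 lower in APC-mutant against wild-type organoids. In double-mutant against BMAL1-null organoids 21 were higher and 30 lower. Centring puts the average member difference near 0, so calls in both directions follow from it once members differ among themselves. The share of all genes called on this scale is not given. Across the 78 members without Rps4l, genes that share libraries and are not independent, the difference and the log2 length had r = 0.04 and 0.05. The cell types of these cultures also differed: the summed markers of enterocytes had medians of 46.0 and 4.64 TPM in double-mutant and APC-mutant libraries against 5716 and 6399 TPM in BMAL1-null and wild-type libraries. The 5 Paneth markers had summed medians of 530 and 1899 against 16530 and 16289 TPM. Among them only Mmp7 went the other way, with medians of 480 and 1821 against 397 and 463 TPM, so the remaining sums are mostly Mmp7. Goblet markers had summed medians of 279 and 54.6 against 6678 and 6514 TPM. The 7 markers of proliferating cells had summed medians of 1385 and 1211 TPM in double-mutant and APC-mutant libraries, against 733 and 740 TPM in BMAL1-null and wild-type libraries. All 7 were higher in both Apc comparisons, where 50.5% and 45.7% of all genes were called higher. In APC-mutant against wild-type organoids 5 of the 7 were called with median-of-ratios scaling and 4 with the length covariate, and in double-mutant against BMAL1-null organoids all 7 with either. The part of cell types in the ribosomal protein differences was not tested.

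Rps27l stood farthest above the family. It encodes a paralog of the small subunit protein RPS27 and is known as a gene that p53 induces. The lowest, median and highest TPM were 946, 1141 and 1375 in double-mutant and 901, 1095 and 1295 in APC-mutant libraries, against 431, 503 and 686 in BMAL1-null and 435, 507 and 649 in wild-type libraries. The 44 libraries of the APC-mutant genotypes did not overlap with the other 44. The share of all genes whose libraries separate in this way is not given, here or for the members below. The difference was 1.08 ± 0.05 in APC-mutant against wild-type (SE, limma adjusted p = 1.74e-20) and 1.15 ± 0.05 in double-mutant against BMAL1-null organoids (adjusted p = 2.51e-21). Rps27l was the only member past 2-fold upward in either, where 12.1% and 11.6% of all genes passed that rule. Alternatives moved it between 0.91 and 1.23 in the first and 0.89 and 1.3 in the second, without loss of the call.

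Rps27, the paralog that is the usual ribosomal component, ran from 1872 to 3373 TPM in double-mutant (median 2361) and from 1807 to 2677 in APC-mutant libraries (2273), against 1936 to 3441 in BMAL1-null (2464) and 1925 to 3483 in wild-type libraries (2463). All 4 ranges overlapped. The difference was -0.14 ± 0.06 in APC-mutant against wild-type (limma adjusted p = 0.0425), and with the length slope as a covariate it was 0.02. With median-of-ratios scaling it was -0.31 (adjusted p = 0.00455). The call was lost in 19 of the 44 fits that left out a library. It was -0.04 ± 0.06 in double-mutant against BMAL1-null organoids (adjusted p = 0.518), and 0.14 with the length covariate (adjusted p = 0.000257). Rps27 had 98.4% of its 101-base windows in common with transcripts of 2 other annotated genes, so the reads given to it are an estimate by RSEM, while Rps27l shared none. The coding sequences of the pair, from GENCODE M21, are shown because their levels were called in opposite directions in APC-mutant against wild-type organoids. In double-mutant against BMAL1-null organoids their levels were not called in opposite directions. Over bases 1 to 253 of each coding sequence, 60 differ, and these are in capitals.
Rps27: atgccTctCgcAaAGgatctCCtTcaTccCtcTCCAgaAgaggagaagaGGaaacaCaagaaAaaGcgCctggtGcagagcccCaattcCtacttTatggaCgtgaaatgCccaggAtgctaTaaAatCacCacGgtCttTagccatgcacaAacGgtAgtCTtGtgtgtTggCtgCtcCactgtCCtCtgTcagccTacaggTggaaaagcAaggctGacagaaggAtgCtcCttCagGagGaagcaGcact
Rps27l: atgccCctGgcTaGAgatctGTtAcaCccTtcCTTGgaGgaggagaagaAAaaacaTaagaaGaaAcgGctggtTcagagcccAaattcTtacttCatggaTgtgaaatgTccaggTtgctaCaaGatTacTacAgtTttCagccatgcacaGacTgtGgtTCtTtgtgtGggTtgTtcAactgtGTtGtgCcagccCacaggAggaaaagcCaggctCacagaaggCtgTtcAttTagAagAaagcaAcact
Rps27 lies at chr3:90212522-90213651 on the minus strand and Rps27l at chr9:66946086-66949516 on the plus strand of GRCm38. None of the 101-base windows of either occurred in the other.

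Rpl27, a large subunit protein, followed, with 793, 1037 and 1679 TPM (lowest, median, highest) in double-mutant and 740, 975 and 1228 in APC-mutant libraries, against 494, 621 and 882 in BMAL1-null and 520, 634 and 958 in wild-type libraries. The ranges overlapped. It was higher by 0.58 ± 0.08 in APC-mutant against wild-type (limma adjusted p = 2.54e-08) and by 0.77 ± 0.07 in double-mutant against BMAL1-null organoids (adjusted p = 5.17e-12). Rpl7, also of the large subunit, had 2978, 3415 and 4022 TPM in double-mutant and 2799, 3179 and 3574 in APC-mutant libraries, against 1875, 2261 and 2691 in BMAL1-null and 1927, 2240 and 2786 in wild-type libraries, with no overlap between Apc genotypes. Its differences were 0.48 ± 0.04 and 0.60 ± 0.04. Rpl14, of the large subunit, had 1942, 2581 and 4636 TPM in double-mutant and 1837, 2352 and 3103 in APC-mutant libraries, against 1428, 1786 and 2222 in BMAL1-null and 1442, 1770 and 2540 in wild-type libraries. These ranges overlapped, and the differences were 0.39 ± 0.07 and 0.58 ± 0.07.

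In the small subunit, Rps2, at the mRNA entry, had 3292, 3864 and 4173 TPM (lowest, median, highest) in double-mutant and 3131, 3769 and 4149 in APC-mutant libraries, against 2419, 2706 and 3322 in BMAL1-null and 2401, 2683 and 3152 in wild-type libraries. The lowest libraries of the APC-mutant genotypes reached into the highest of the others. It was higher by 0.44 ± 0.04 and 0.51 ± 0.03 (limma adjusted p = 3.67e-12 and 3.06e-16). Rpsa, also known as a laminin receptor, had 2400, 2903 and 4862 TPM in double-mutant and 2310, 2716 and 3311 in APC-mutant libraries, against 1790, 1962 and 2559 in BMAL1-null and 1734, 2032 and 2749 in wild-type libraries. The ranges overlapped, and it was higher by 0.40 ± 0.05 and 0.55 ± 0.06. Rps13, described further with the Bmal1 comparisons, was higher by 0.41 ± 0.06 and 0.45 ± 0.04. Rpl27, Rpl7, Rps2 and Rps13 in the first comparison, and Rpl27, Rpl7, Rpl14 and Rpsa in the second, kept their calls under every alternative tried.

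Rplp0, Rplp1 and Rplp2 make up the stalk, whose summed level averaged 15478 ± 2474 TPM in double-mutant and 14208 ± 1274 in APC-mutant libraries, against 12422 ± 1407 in BMAL1-null and 12385 ± 1692 in wild-type libraries (SD, n = 22 each). Rplp0 ran from 3666 to 4305 TPM in double-mutant and from 3569 to 4311 in APC-mutant libraries, against 3036 to 3875 in BMAL1-null and 2896 to 3895 in wild-type libraries, with overlap. Rplp0, the base that anchors the acidic pairs, was higher by 0.21 ± 0.03 in APC-mutant against wild-type and by 0.25 ± 0.03 in double-mutant against BMAL1-null organoids, Rplp1 by 0.21 ± 0.06 and 0.37 ± 0.07, and Rplp2 by 0.18 ± 0.07 and 0.29 ± 0.08. All 3 passed the limma test in both comparisons, with adjusted p from 3.54e-11 to 0.028. With median-of-ratios scaling the APC-mutant differences of Rplp0, Rplp1 and Rplp2 were 0.03, 0.04 and 0.01, none called. In double-mutant organoids they were 0.17, 0.28 and 0.21 on that scale, with Rplp0 and Rplp1 called. Of the pair that carries the 5S rRNA and can bind MDM2, Rpl11 was higher by 0.21 ± 0.06 and 0.31 ± 0.06 (adjusted p = 0.00131 and 3.8e-05), while Rpl5 gave -0.02 ± 0.05 and 0.10 ± 0.06 (adjusted p = 0.759 and 0.0898). With median-of-ratios scaling in APC-mutant organoids Rpl11 gave 0.04, and Rpl5 gave -0.19 (limma adjusted p = 0.0378). In double-mutant organoids Rpl11 gave 0.22 on that scale (adjusted p = 0.0524), and with the length covariate Rpl5 gave 0.25 there (adjusted p = 1.93e-08). Rpl3 was higher by 0.34 ± 0.05 and 0.42 ± 0.05, Rpl39, of the exit tunnel, by 0.19 ± 0.08 and 0.23 ± 0.08, and Rpl10 by 0.05 ± 0.02 and 0.13 ± 0.02, where median-of-ratios scaling turned the first Rpl10 difference to -0.12 (adjusted p = 0.0152). That scaling also ended the second Rpl10 call (0.05, adjusted p = 0.304), the first Rpl3 call (0.16, adjusted p = 0.062) and both Rpl39 calls (0.015 and 0.148, adjusted p = 0.907 and 0.259). The differences between members of these groups were not tested.

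The members called lower in APC-mutant against wild-type organoids were Rps4l, Rps29, Rpl30 and Rps27. Rps29, a zinc-binding protein of the small subunit head, had a difference of -0.17 ± 0.06 (limma adjusted p = 0.0152), which was -0.02 with the length slope as a covariate. Rpl30, of the large subunit, had -0.15 ± 0.05 (adjusted p = 0.0119), which was -0.05 with that covariate. With median-of-ratios scaling these differences were -0.34 and -0.32. Neither gene passed in double-mutant against BMAL1-null organoids, at -0.06 ± 0.07 and 0.05 ± 0.04, but with the length covariate both were higher there, at 0.13 (limma adjusted p = 0.000778) and 0.12 (adjusted p = 0.0027).

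Rps4l is annotated as a transcribed processed pseudogene related to Rps4x, which encodes the small subunit protein RPS4 on the X chromosome, and lies at chr6:148354656-148355598 on the plus strand. In the lower-numbered double-mutant libraries its median was 71.9 TPM, and in the higher-numbered ones it ran from 22.3 to 25.5 TPM. In APC-mutant libraries the lower-numbered set had a median of 0.025 TPM and the higher-numbered set ran from 3.12 to 6.69 TPM. BMAL1-null libraries ran from 46.0 to 99.3 TPM and wild-type libraries from 43.1 to 76.9 TPM. The doubted pair stood with the other BMAL1 genotype of its set: the library labelled double-mutant held 0.14 TPM and the one labelled APC-mutant 71.8 TPM.

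On the log2(TPM + 1) scale, which understates changes near 0, Rps4l had a difference of -4.32 ± 0.31 in APC-mutant against wild-type organoids (SE, limma adjusted p = 6.46e-15). It was -0.80 ± 0.30 in double-mutant against BMAL1-null organoids (adjusted p = 0.0145). Within the lower-numbered libraries the second difference was -0.62 (adjusted p = 0.258), and within the higher-numbered ones -1.21. The lower-numbered set includes the doubted double-mutant library at 0.14 TPM, and no value for that set without it is given. Over all libraries, leaving out 1 library at a time moved the second difference between -0.88 and -0.56. Against APC-mutant organoids, double-mutant organoids were higher by 3.57 ± 0.49 (adjusted p = 2.87e-07), and by 4.04 without both doubted libraries. BMAL1-null against wild-type gave 0.15 ± 0.07 (adjusted p = 0.424), with 0.33 (adjusted p = 0.0016) within the lower-numbered and -0.02 within the higher-numbered libraries. Rps4x averaged 2436 ± 184, 2304 ± 151, 2255 ± 261 and 2274 ± 281 TPM in double-mutant, APC-mutant, BMAL1-null and wild-type libraries and gave 0.03 ± 0.04 in APC-mutant against wild-type (adjusted p = 0.514), or 0.12 with the length covariate (adjusted p = 0.0038). It was higher by 0.12 ± 0.04 in double-mutant against BMAL1-null (limma adjusted p = 0.00654) and by 0.07 ± 0.03 in double-mutant against APC-mutant organoids (adjusted p = 0.0389). With median-of-ratios scaling it was not called in any of these, at -0.14, 0.04 and 0.12. Rps4l and Rps4x are 79.9% identical over 783 aligned coding bases, differ at 157, and share no window of 101 bases. Bases 484 to 573 of each, with the 27 differences in capitals, are shown to give the spacing of the differences.
Rps4x: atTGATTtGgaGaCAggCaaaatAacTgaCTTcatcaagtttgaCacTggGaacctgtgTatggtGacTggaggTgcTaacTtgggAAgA
Rps4l: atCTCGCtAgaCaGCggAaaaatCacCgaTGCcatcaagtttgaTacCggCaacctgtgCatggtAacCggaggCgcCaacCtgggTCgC
The organoid line of each library is not given, so line and library set cannot be told apart.

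The Bmal1 comparisons gave smaller median differences. In double-mutant against APC-mutant organoids 23 of 79 members were higher and 1 lower in limma, against 24.6% higher and 35.7% lower over all genes. The median member difference was 0.08, against -0.04 over all genes, and 76 of 79 members were above 0. Without both doubted libraries 45 were higher and 1 lower, with a median of 0.10. Relative to the mean of the members, 6 were higher and 5 lower, a scale on which the average member difference is near 0 by construction. In BMAL1-null against wild-type organoids none was higher and 1 was lower in limma, where 2.09% and 1.47% of all genes were called. The median difference was 0.00, with 45 members above and 34 below 0. The lower-numbered libraries alone gave 5 higher and 0 lower, and the higher-numbered ones 0 and 0.

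The members highest in double-mutant against APC-mutant organoids after Rps4l were Rps12 (0.20 ± 0.07, limma adjusted p = 0.0164), Rpl18 (0.17 ± 0.04, adjusted p = 0.000957), Rpl30 (0.15 ± 0.05, adjusted p = 0.00767) and Rpl8 (0.15 ± 0.04, adjusted p = 0.00447). Rps12 ran from 4471 to 12269 TPM in double-mutant and from 3878 to 6616 TPM in APC-mutant libraries, which overlap. Rps12 and Rpl18 did not pass within the lower-numbered libraries, and Rpl30 and Rpl8 did not pass within the higher-numbered ones. Rps15a, of the small subunit, was among the members farthest from the family in both Bmal1 comparisons without a call, at -0.06 ± 0.06 and -0.07 ± 0.07.

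Rps13 was the only member called lower in both Bmal1 comparisons. It encodes a small subunit protein of the platform and lies at chr7:116331505-116334195 on the minus strand, 3.02 Mb beyond the end of Arntl. Its lowest, median and highest TPM were 1274, 1478 and 2008 in double-mutant against 1430, 1753 and 2248 in APC-mutant libraries, and 974, 1065 and 1353 in BMAL1-null against 1048, 1263 and 1721 in wild-type libraries. Both pairs of ranges overlapped. The difference was -0.22 ± 0.05 in double-mutant against APC-mutant (limma adjusted p = 0.000222) and -0.24 ± 0.05 in BMAL1-null against wild-type organoids (adjusted p = 0.00264). With median-of-ratios scaling neither passed, at -0.16 (adjusted p = 0.0665) and -0.24 (adjusted p = 0.136). With the length slope as a covariate both passed, at -0.207 (limma adjusted p = 8.58e-09) and -0.253 (adjusted p = 1.35e-14). Within the lower-numbered and higher-numbered libraries the BMAL1-null difference was -0.14 and -0.31, and neither passed. The 13 other members on chromosome 7 ran from -0.06 to 0.17 and from -0.07 to 0.04 in the same comparisons.

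Another copy of the same sequence is annotated. Rps13-ps2, a pseudogene that is not a member and was looked at after its values were seen, lies at chr7:88530446-88530898 on the minus strand, 24.7 Mb before Arntl. It was listed at 0 in all 22 BMAL1-null libraries and ran from 2.53 to 7.85 TPM in wild-type libraries. In double-mutant libraries it reached at most 0.09 TPM, apart from 10.45 TPM in the doubted library. In APC-mutant libraries it ran from 3.69 to 15.5 TPM, apart from 0 in the doubted one. Its 453 bases are identical to Rps13 coding sequence, and the pair shares 353 windows of 101 bases. The first 90 coding bases of each are shown, with no difference.
Rps13: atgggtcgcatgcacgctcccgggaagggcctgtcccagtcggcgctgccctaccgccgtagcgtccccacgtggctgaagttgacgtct
Rps13-ps2: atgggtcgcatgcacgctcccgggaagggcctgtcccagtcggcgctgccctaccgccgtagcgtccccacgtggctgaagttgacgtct
Rps13 shared 77.5% of its windows with 5 other annotated genes, all pseudogenes, so that the split of reads among them is an estimate. Over the family the median share was 37.7% and 33 members were above 50%. Among the members named, it was 88.8% for Rps12, 64.5% for Rps2 and 60.5% for Rpl27. Reads mapped to too many loci took 11.4% to 11.7% of reads on average in every genotype.

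**Figure D4:**
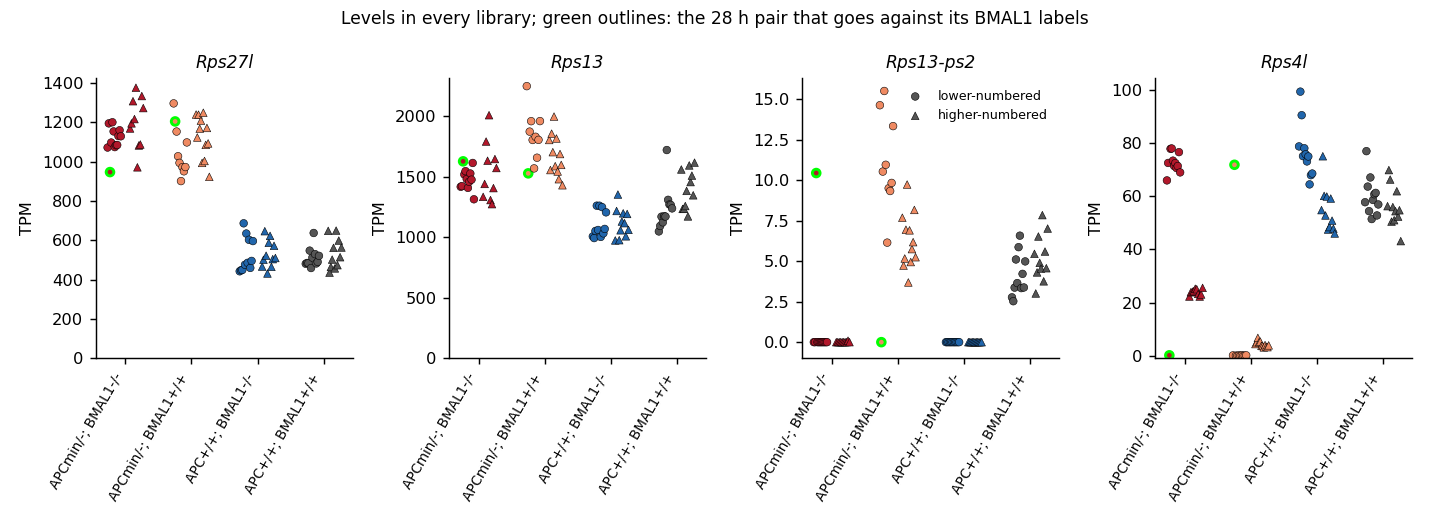
TPM (vertical axis) of Rps27l, Rps13, the pseudogene Rps13-ps2 and Rps4l in every library by genotype, with circles and triangles for lower-numbered and higher-numbered libraries and green outlines for the 28 h pair that went against its BMAL1 labels. Rps27l does not overlap between Apc genotypes, Rps13-ps2 is at 0 in BMAL1-null libraries, and Rps4l falls into blocks by genotype and library set.

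The interaction of the Apc and Bmal1 alleles was tested over the 88 libraries, as the Apc difference in BMAL1 mutant background minus that in BMAL1 wild-type background. It was above 0 for 79 of 79 members, with a median of 0.09 against -0.05 over all genes, and 6 passed upward and 0 downward in limma. Over all genes 18.1% passed upward and 29.6% downward. The members were Rps4l (3.44 ± 0.47), Rpl30 (0.18 ± 0.07), Rpl8 (0.17 ± 0.06), Rpl6 (0.14 ± 0.05), Rpl4 (0.11 ± 0.03) and Rpl10 (0.09 ± 0.03). Apart from Rps4l, all belong to the large subunit, as do 47 of the 79 members tested, and a difference between subunits was not tested. The median was 0.01 within the lower-numbered and 0.19 within the higher-numbered libraries. Without both doubted libraries 17 were called, and with the length slope as a covariate 41, all upward.

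Time after synchronization was tested next, first as a straight line over the 22 h. In APC-mutant organoids 78 of 79 members had a negative slope, with a median fitted change of -0.18 in log2(TPM + 1) over the 22 h against 0.11 over all genes. In limma 21 members fell and none rose, where 9.01% of all genes fell and 22.2% rose. The summed level averaged 175434, 173128 and 184881 TPM at 24, 26 and 28 h, and 163293, 161388 and 162790 TPM at 42, 44 and 46 h. The sum and time had a Pearson r of -0.50 and a Spearman rho of -0.56, and r was -0.46 without the 2 libraries farthest from the median time, while the length slope and time had r = 0.13. The fitted change was -0.25 ± 0.06 for Rpl7a (limma adjusted p = 0.00691), -0.32 ± 0.09 for Rps27l, -0.34 ± 0.09 for Rplp1, -0.30 ± 0.09 for Rpl11 and -0.36 ± 0.11 for Rpl35, near the exit tunnel (adjusted p = 0.0158). Without both doubted libraries 11 fell, within the lower-numbered libraries none passed, and within the higher-numbered ones 2 fell and 1 rose.

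No member fell in the other genotypes by the same test. In double-mutant organoids the median change was 0.02 over the 22 h, and the pseudogene Rpl6l rose by 0.41 ± 0.13 (limma adjusted p = 0.044), where 5.62% of all genes rose and 2.82% fell. In BMAL1-null organoids the median was 0.06, and Rpl4 (0.16 ± 0.04, adjusted p = 0.0154) and Rpl10 (0.13 ± 0.04, adjusted p = 0.0412) rose, where 3.43% of all genes rose and 3.28% fell. In wild-type organoids 76 of 79 members were above 0, with a median of 0.24 against -0.09 over all genes, and Rpl17 rose by 0.32 ± 0.08 (adjusted p = 0.0358), where 0.971% of all genes rose and 1.23% fell. The sum and time had r = 0.39 in wild-type organoids, and the length slope and time r = -0.29. Leaving out wild-type 24 h replicate 2 gave 21 rising members in wild-type organoids, and leaving out 24 h replicate 1 gave 0.

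**Figure D5:**
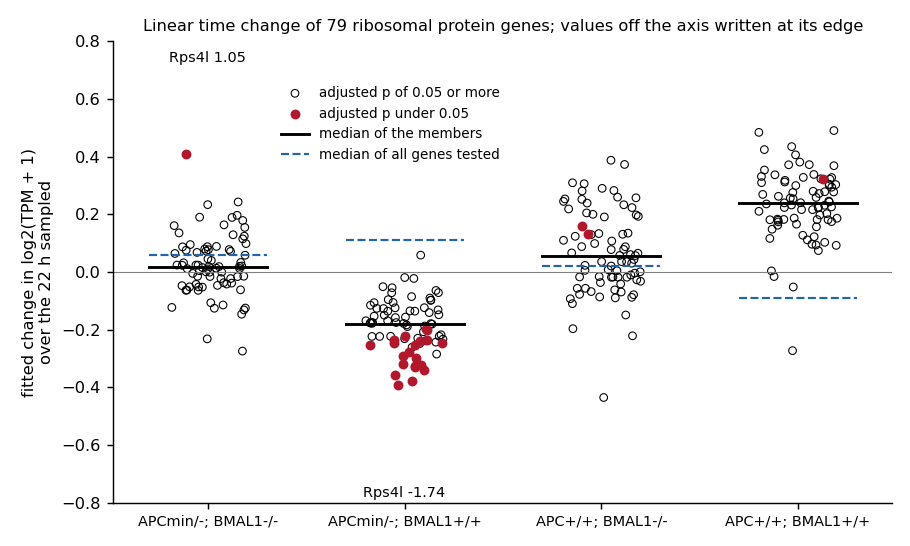
Fitted linear change in log2(TPM + 1) over the 22 h sampled (vertical axis) for each of 79 ribosomal protein genes by genotype, with filled points for an adjusted p under 0.05, a solid line for the median of the members and a dashed line for the median of all genes. The medians of the members are 0.02, -0.18, 0.06 and 0.24 from left to right.

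The slopes themselves were then compared. Between APC-mutant and wild-type organoids the slope difference was below 0 for 79 of 79 members, with a median of -0.42 over the 22 h against 0.21 over all genes. In limma 47 members had a lower slope in APC-mutant organoids and none a higher one, against 5.09% and 16.5% of all genes. Rps7, of the small subunit, gave -0.53 ± 0.12 (adjusted p = 0.00253), Rpl14 -0.66 ± 0.18, Rpl27 -0.75 ± 0.21, Rpl22 -0.66 ± 0.19 and Rpl5 -0.50 ± 0.14 (adjusted p = 0.0136). The slopes behind these were -0.24 in APC-mutant and 0.29 in wild-type organoids for Rps7, -0.33 and 0.33 for Rpl14, and -0.38 and 0.37 for Rpl27. For Rpl22, an RNA-binding protein of the large subunit, they were -0.29 and 0.37, and for Rpl5 -0.17 and 0.33. The count rested on few libraries at the ends of the series: it was 15 without wild-type 46 h replicate 2, 16 without wild-type 24 h replicate 1, 28 without wild-type 26 h replicate 1 and 30 without APC-mutant 28 h replicate 1. Within the lower-numbered libraries 2 passed and within the higher-numbered ones 6, all in the same direction. In the other 3 comparisons of slopes no member was called. The share of all genes called with a higher and a lower slope was 0.109% and 0.171% in double-mutant against APC-mutant, 0% and 0% in BMAL1-null against wild-type, and 4.83% and 2.39% in double-mutant against BMAL1-null organoids. Before adjustment, 23 members had p under 0.05 in double-mutant against APC-mutant, 0 in BMAL1-null against wild-type and 4 in double-mutant against BMAL1-null organoids, where 21.9%, 2.54% and 18.8% of all genes did. In APC-mutant against wild-type organoids 69 members and 37.1% of all genes had p under 0.05 before adjustment.

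A 24 h cosine, fitted to a single sampled cycle, passed in limma for 6 members in APC-mutant organoids, where 12% of all genes passed. Before adjustment 41 members and 31% of all genes had p under 0.05. The 6 were Rpl35, Rplp1, Rpl27, Rpl7a, Rpl11 and Rps26, with amplitudes of 0.11 to 0.18 in log2(TPM + 1) and fitted peaks from 26.8 to 29.5 h. None passed once a linear time term was added, and none without both doubted libraries. In double-mutant, BMAL1-null and wild-type organoids none passed, where 2.59%, 0% and 0.0557% of all genes did. Before adjustment 0, 2 and 28 members had p under 0.05 there, against 14.9%, 6.88% and 12.2% of all genes.

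Genes that build and use ribosomes were read from lists chosen for their function, with scaling and length alternatives that were added after seeing the data. Of 56 ribosome biogenesis genes, 52 were higher and 1 lower in APC-mutant against wild-type, where 50.5% of all genes were higher and 31.1% lower. In double-mutant against BMAL1-null organoids 54 were higher and 1 lower, where 45.7% of all genes were higher and 38.8% lower. The medians of the list were 0.63 and 1.00 in log2(TPM + 1). With median-of-ratios scaling 48 were higher and 3 lower in the first and 53 higher and 2 lower in the second. Among those with the largest differences, Polr1e, a subunit of RNA polymerase I, was higher by 1.10 ± 0.07 and 1.57 ± 0.04, and Ncl, the nucleolar protein nucleolin, by 0.98 ± 0.11 and 1.61 ± 0.06. In double-mutant against APC-mutant organoids 47 were higher and 0 lower, with a median of 0.39, where 24.6% of all genes were higher and 35.7% lower. In BMAL1-null against wild-type organoids 2 were higher and 0 lower, where 2.09% of all genes were higher and 1.47% lower. The 2 were subunits of the RNA polymerase I factor SL1, Taf1c (0.26 ± 0.04) and Taf1b (0.24 ± 0.04). Over time in APC-mutant organoids 31 of the 56 fell and 1 rose, where 9.01% of all genes fell and 22.2% rose. The median change of the list was -0.65 over the 22 h. The median level differences of this list exceeded those of the ribosomal proteins in each of the 3 comparisons with APC-mutant genotypes. Whether the lists differ was not tested.

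Translation factors and other genes known for a 5' pyrimidine tract formed a list of 20. Of these, 13 were higher and 2 lower in APC-mutant against wild-type organoids, where 50.5% and 31.1% of all genes were. In double-mutant against BMAL1-null organoids 14 were higher and 3 lower, where 45.7% and 38.8% of all genes were. The medians of the list were 0.17 and 0.26. With median-of-ratios scaling the first comparison gave 7 higher and 6 lower and the second 12 higher and 4 lower. Npm1, a nucleolar chaperone, was higher by 1.2 ± 0.09 and 1.65 ± 0.05. In double-mutant against APC-mutant organoids 10 were higher and 0 lower, where 24.6% of all genes were higher and 35.7% lower. Ribosomal protein genes and relatives outside the symbol rule were 8 in all. They gave 5 higher and 1 lower in the first Apc comparison and 5 higher and 2 lower in the second, against the same shares over all genes. Under median-of-ratios scaling the counts were 2 and 2, and 3 and 2.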

How the data were processed

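Per the labels, RNA of the organoids was made into directional libraries and read as single reads of 101 nt. The authors deposited TPM per gene as a table for each genotype, and STAR 2.5, RSEM 1.3.0 and the build GRCm38 are named in the submitters' processing notes. The counts in the alignment table, numbers of mapped reads, and its percent values were deposited as the aligner logged them, per the file headers. A column of that table, which holds other text, says per the file headers whether a library was used, and 8 of 96 libraries were not. The quantile-normalized TPM tables of the authors served as an alternative only. The gene annotation behind the TPM values is not given in the sources used here.

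The design had counted 24 libraries per genotype, and the tables hold 22. Symbols, lengths and transcripts came from GENCODE M21. TPM was analysed as log2(TPM + 1) in limma 3.58.1 (R 4.3.3), with a variance trend, for genes averaging at least 1 TPM in either genotype compared. Levels were compared with time point as a factor, and time was tested as a line and as a 24 h cosine. P-values were adjusted by Benjamini-Hochberg over all genes. Errors are standard errors unless SD is given. The code was tested on simulated data. The members and lists were chosen with earlier results of these data known.

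Named members are the 6 highest, those under 1 TPM, up to 5 called with the largest difference per direction, the 4 farthest from the family median, the 5 of lowest adjusted p per time test, and the paralog, stalk and 5S partners. Alternatives changed the pseudocount (0.1), the filter, the scaling, the length correction, the library set, the time model and the centring, and left out each library. Replicate numbers only name libraries in accession order and pair nothing, and library sets go by the library number in the labels.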

Additional observations from a re-analysis of the deposited data

Results flagged for a closer look

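The effect of the Apc alleles on level differed between BMAL1 backgrounds for 6 members by the interaction test in limma, all 6 upward, of 79 tested, where 18.1% of all genes passed upward and 29.6% downward. The log2 estimates were 3.44 for Rps4l, 0.18 for Rpl30, 0.17 for Rpl8, 0.14 for Rpl6, 0.11 for Rpl4 and 0.09 for Rpl10, as the Apc difference in the BMAL1 mutant minus that in the BMAL1 wild-type background. For Rps4l the Apc differences were -0.80 and -4.32, and for Rpl30 0.05 and -0.15, so a positive interaction is not a larger Apc difference there. The Rps4l difference also followed the library set, and the doubted 28 h pair held values of the other BMAL1 genotype of its set.

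The change over time differed between APC-mutant and wild-type organoids for 47 members by the test of the slope difference in limma, all with a lower slope in APC-mutant organoids, where 5.09% of all genes had a lower and 16.5% a higher slope. Over the 22 h the differences, APC-mutant minus wild-type, were -0.53 for Rps7, -0.66 for Rpl14, -0.75 for Rpl27, -0.66 for Rpl22 and -0.50 for Rpl5. The 47 were called over 44 libraries, and the count was between 15 and 67 when 1 library at a time was left out.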

How the results depend on the processing

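Counts below are members called by limma at an adjusted p under 0.05, of 79. The share of all genes called is given for the main fits only. In double-mutant against APC-mutant organoids (24) the count was 39 on the authors' quantile-normalized table, 45 with the length slope as a covariate, 37 with the length trend removed, 12 and 6 in the lower-numbered and higher-numbered libraries alone, 46 without both doubted libraries and 11 centred on the members. In BMAL1-null against wild-type organoids (1) it was 0 with median-of-ratios scaling, 5 in the lower-numbered and 0 in the higher-numbered libraries. In APC-mutant against wild-type organoids (52) the lower-numbered libraries gave 21 and median-of-ratios scaling 18, and in double-mutant against BMAL1-null organoids (64) that scaling gave 31. The interaction (6) gave 18 on the quantile-normalized table, 41 with the length covariate, 25 with the length trend removed, 3 in the higher-numbered libraries and 17 without both doubted libraries.

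Among time tests, the cosine in APC-mutant organoids (6) gave 0 without the filter, 12 with median-of-ratios scaling, 1 on the quantile-normalized table, 22 with the length covariate and 27 with the library set as a term. It gave 0 with the length trend removed, in either library set, without both doubted libraries, with a linear term added and with time as a factor. The wild-type cosine (0) gave 3 with the library set as a term. The line in wild-type organoids (1) gave 2 with a pseudocount of 0.1, 0 without the filter, 0 with median-of-ratios scaling, 6 quantile-normalized, 15 with the length covariate, 8 with the trend removed, 12 with the library set and 0 in either set. In BMAL1-null organoids (2) it gave 1 without the filter, 0 with median-of-ratios scaling, 8 quantile-normalized, 33 with the length covariate, 18 with the trend removed and 0 in either set. In APC-mutant organoids (21) it gave 6 without the filter, 11 with the trend removed, 0 and 3 in the lower-numbered and higher-numbered sets and 11 without both doubted libraries. In double-mutant organoids (1) it gave 0 without the filter, 0 at a mean of 5 TPM, 0 with median-of-ratios scaling, 2 quantile-normalized, 7 with the length covariate and 0 in either set. The slope difference of APC-mutant against wild-type (47) gave 27 with median-of-ratios scaling, 17 without the filter, 2 and 6 in the lower-numbered and higher-numbered sets and 30 without both doubted libraries. That of double-mutant against APC-mutant (0) gave 3 quantile-normalized, 16 with the length covariate, 2 with the library set and 4 in the lower-numbered set. That of double-mutant against BMAL1-null (0) gave 4 quantile-normalized, 13 with the length covariate, 4 with the trend removed and 1 without both doubted libraries. The cause of these moves was not tested.

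Leaving out 1 library at a time, the level counts ran from 16 to 44 in double-mutant against APC-mutant (44 without double-mutant 28 h replicate 1), 1 to 1 in BMAL1-null against wild-type, 46 to 55 in APC-mutant against wild-type and 61 to 67 in double-mutant against BMAL1-null organoids. The interaction ran from 6 to 13 (13 without that same library). Cosine counts ran from 0 to 26 in APC-mutant and 0 to 0 in the other genotypes. Linear counts ran from 0 to 2 in double-mutant, 11 to 30 in APC-mutant, 1 to 5 in BMAL1-null and 0 to 21 in wild-type organoids. Slope difference counts ran from 0 to 2, 0 to 0, 15 to 67 and 0 to 1 for double-mutant against APC-mutant, BMAL1-null against wild-type, APC-mutant against wild-type and double-mutant against BMAL1-null.

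Some named differences changed sign. In double-mutant against APC-mutant organoids Rps15a was 0.0172 in the higher-numbered libraries. In BMAL1-null against wild-type organoids Rpl18 was -0.056 and Rps4l -0.0203 in the higher-numbered libraries, and Rps15a was 0.15 in the lower-numbered ones. In APC-mutant against wild-type organoids Rps27 was 0.0168 with the length covariate and 0.0439 with the trend removed, and Rps29 was 0.002 with the trend removed. Rps27 kept its call in 25 of 44 fits that left out a library. No paired analysis was possible because replicate numbers were given in accession order and the labels tie them to no line or day. The library set, from library numbers, was used as a term instead, with the counts given above. The mean summed TPM of a genotype moved by less than its SD over libraries in either library set alone and without both doubted libraries. The same held without the members under 1 TPM and with the 8 genes outside the symbol rule added. A move within that SD can be as large as a difference between genotypes. No sum under median-of-ratios scaling or a length correction is given. Differences near the size of the library length effect, and levels of members that share reads with pseudogenes, are limited by the deposited estimates.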

Other observations

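Mitochondrial ribosomal proteins, encoded in the nucleus and used in another ribosome, are a family of the same kind of function. Of 78, 60 were higher and 8 lower in APC-mutant against wild-type organoids by limma, where 50.5% and 31.1% of all genes were. In double-mutant against BMAL1-null organoids 66 were higher and 7 lower, where 45.7% and 38.8% of all genes were. The medians of the family were 0.27 and 0.37 in log2(TPM + 1). With median-of-ratios scaling the counts were 34 higher and 12 lower, and 60 higher and 7 lower. In double-mutant against APC-mutant organoids 53 were higher and 2 lower, where 24.6% and 35.7% of all genes were. In BMAL1-null against wild-type organoids 3 were higher and 0 lower, where 2.09% and 1.47% of all genes were. Mrpl3 was higher by 0.84 ± 0.06 and 1.06 ± 0.04 in the Apc comparisons. Over time in APC-mutant organoids 46 fell and 1 rose, where 9.01% of all genes fell and 22.2% rose. The median change of the family was -0.28 over the 22 h.

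Regulators of growth and translation, a list of 17 that holds activators and brakes, were called in both directions in both Apc comparisons, as all genes were. In APC-mutant against wild-type organoids 7 were higher and 5 lower, where 50.5% of all genes were higher and 31.1% lower. With median-of-ratios scaling 3 were higher and 8 lower. Deptor, an inhibitor of mTOR, gave -2.68 ± 0.08, Sesn1, a p53-induced inhibitor of mTORC1, -2.02 ± 0.06, and Mycn, a MYC family factor, -1.63 ± 0.06. In double-mutant against BMAL1-null organoids 6 were higher and 8 lower, where 45.7% of all genes were higher and 38.8% lower. The differences there were -1.91 ± 0.08 for Deptor, -2.20 ± 0.06 for Sesn1 and -1.995 ± 0.050 for Mycn. Over time in APC-mutant organoids 7 of the 16 tested rose and 0 fell, where 22.2% of all genes rose and 9.01% fell. In BMAL1-null against wild-type organoids 0 of the 17 passed, where 2.09% of all genes were higher and 1.47% lower. Mycn came first by size, at 0.10 ± 0.05.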
